A study of Saccharomyces cerevisiae with 12 samples.

Results

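The galactose utilisation genes described here are 9 genes of budding yeast (Saccharomyces cerevisiae), chosen by gene symbol in the probe annotation from the 5636 genes measured. Of these, 6 are structural genes (GAL2, GAL1, GAL7, GAL10, PGM2 and GCY1) and 3 are regulators (GAL4, GAL80 and GAL3), and all 9 had a value on each of the 12 arrays. Two-channel oligonucleotide arrays set RNA of a gcr1 null mutant against that of a second strain, which the labels do not name, in cultures given 3% raffinose, 3% galactose or 2% glucose. GCR1 encodes a transcriptional activator of glycolytic genes. Each sugar had 4 arrays, numbered as replicates 1 to 4. They comprise separate biological samples and dye-swapped repeats of each, and the labels do not say which array repeats which sample. A group of 4 arrays thus stands for fewer than 4 cultures, which can make p-values computed over arrays smaller than they should be. The sources used here do not give the strain background or the nature of the gcr1 allele.

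Galactose enters the yeast cell through the permease Gal2 and is converted to glucose-phosphate by the enzymes of the Leloir pathway before it joins glycolysis. The activator Gal4 drives transcription of the structural genes. The inhibitor Gal80 holds Gal4 back until the sensor Gal3, bound to galactose and ATP, relieves it. In glucose these genes are repressed, whereas in raffinose they are neither repressed nor induced. A ratio between strains within a sugar says nothing of the induction by that sugar, because each array compares 2 strains in the same medium.

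Each value below is a deposited log2 ratio between the strains, given as the mean ± SD over 4 arrays. A gene is called above 0 or below 0 where its mean differed from 0 with an adjusted p under 0.05 (limma, Benjamini-Hochberg over all 5636 genes). Whether a positive ratio means more RNA in the mutant is not settled, since the labels do not give the channel that held it. The glycolytic genes GPM1 and ENO2, which Gcr1 is known to activate, were below 0 on all 12 arrays (-6.17 to -3.86 and -6.39 to -3.70), which would make a positive ratio more RNA in the mutant. GCR1 itself goes against that reading, with ratios above 0 on all 12 arrays (0.21 to 2.04), and whether its probes lie inside the deleted part is not known. The signs are therefore given as deposited, and the opposite reading would exchange the strains in every statement. In raffinose, replicates 1 and 2 also correlated below 0 with replicates 3 and 4 over all probes (r from -0.507 to -0.34), although among named probes alone r was 0.243 to 0.466. All 114 unnamed spots with a ratio beyond 5 in size on at least 6 arrays changed sign between replicates 1 and 2 and replicates 3 and 4. That was read from medians pooled over the 3 sugars, and not for raffinose alone. Because of the raffinose correlations below 0, raffinose results are given also with the signs of replicates 3 and 4 turned. Turning them would put GPM1 and ENO2 above 0 there, whereas as deposited both were below 0 on all 12 arrays. By construction, turning moves the raffinose mean of a gene with the same sign on every raffinose array towards 0. It moves the mean of a gene split between the pairs away from 0. Calls lost or gained by turning therefore neither weaken nor strengthen those made with the deposited signs. The galactose pairs correlated slightly below 0 over all probes as well (-0.143 to -0.0513) and at 0.657 to 0.733 among named probes, and there the deposited signs were kept. Turning galactose replicates 3 and 4 would move GAL1 from a mean of -2.04 to one of 0.59 ± 2.37. How bright each spot was over its background was not analysed here, and precision is limited by the number of arrays.

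Of the structural genes, only GAL1 and GAL7 were called on different sides of 0 in different sugars. In galactose GAL1, GAL2 and GAL7 were below 0 while PGM2 and GCY1 were close to 0. In raffinose and glucose PGM2 and GCY1 were well above 0, and in glucose GAL1 and GAL7 were above 0 as well. Of the 9 genes, 3 were called above 0 and 0 below in raffinose, where 22.4% of all genes were called above and 14.3% below. In galactose 0 were called above and 5 below, against 34.8% and 25.2% of all genes. In glucose 6 were called above and 0 below, against 26.8% and 31.8% of all genes. The 9 genes had a median of -0.095 in raffinose, of -0.69 in galactose and of 0.89 in glucose, beside medians over all genes of 0.052, 0.078 and -0.038.

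**Figure D1:**
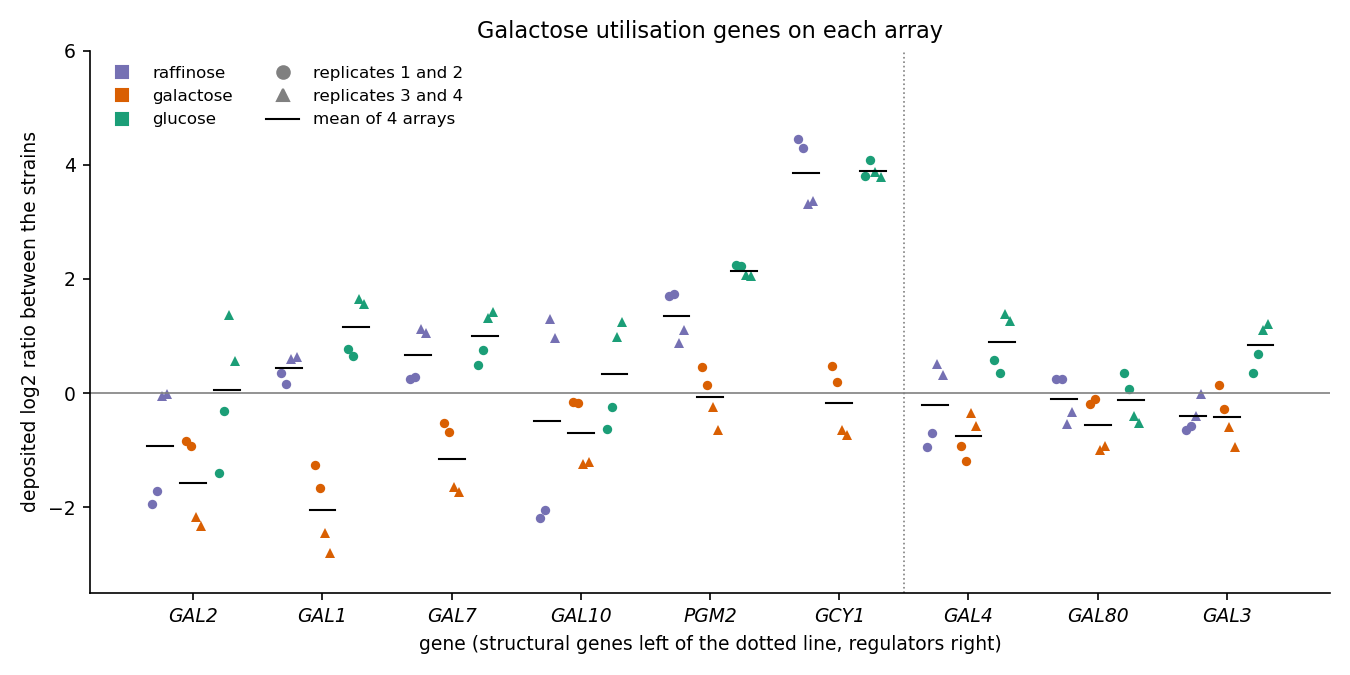
Deposited log2 ratio (vertical axis) of the 9 galactose utilisation genes (horizontal axis) on each of 4 arrays per sugar, with circles for replicates 1 and 2, triangles for replicates 3 and 4 and a bar for the mean. GCY1 and PGM2 lie above 0 on all raffinose and glucose arrays and around 0 in galactose, and the raffinose values of GAL10 split into a low and a high pair.

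GAL2 (YLR081W), which encodes the galactose permease, was read by a single probe. Its log2 ratios in galactose were -0.84, -0.93, -2.17 and -2.33 on replicates 1 to 4, a mean of -1.57 ± 0.79 (limma, adjusted p = 0.008). In raffinose they were -1.94, -1.71, -0.043 and -0.013, a mean of -0.93 ± 1.04 (adjusted p = 0.121), and the call in galactose was the only one for this gene. In glucose they were -1.41, -0.32, 1.36 and 0.56, a mean of 0.0495 ± 1.19 (adjusted p = 0.931). The glucose arrays fell on both sides of 0, and replicates 1 and 2 of raffinose lay below the galactose arrays of the same number. The galactose and raffinose groups overlapped, as did the galactose and glucose groups.

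GAL1 (YBR020W) encodes galactokinase, which phosphorylates galactose in the first enzymatic step. Its log2 ratios in galactose were -1.25, -1.66, -2.46 and -2.80 on replicates 1 to 4, a mean of -2.04 ± 0.71 (limma, adjusted p = 1.13e-05), which corresponds to a 4.12-fold difference between the strains. In raffinose they were 0.35, 0.16, 0.60 and 0.63, a mean of 0.44 ± 0.22 that was not called (adjusted p = 0.172). In glucose they were 0.77, 0.65, 1.66 and 1.56, a mean of 1.16 ± 0.52 (adjusted p = 0.00103). All 4 galactose arrays lay below 0 and all 8 others above it, so the groups did not overlap. The glucose arrays were also all above the raffinose arrays. Within each sugar replicates 3 and 4 lay farther from 0 than replicates 1 and 2. Among the 5636 genes, GAL1 ranked 73 from the lowest in galactose.

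GAL7 (YBR018C) encodes the uridylyltransferase that exchanges galactose and glucose between their phosphate and UDP forms. Its galactose ratios were -0.53, -0.69, -1.64 and -1.73, a mean of -1.15 ± 0.63 (adjusted p = 0.001). The glucose ratios were 0.49, 0.76, 1.32 and 1.42, a mean of 0.996 ± 0.44 (adjusted p = 0.00279). The raffinose ratios were 0.24, 0.28, 1.12 and 1.05, a mean of 0.67 ± 0.47 (adjusted p = 0.0402). As with GAL1, every galactose array was below 0 and every other array above it. Replicates 3 and 4 were again the farther from 0 in each sugar. The raffinose call rested on those replicates, being lost without replicate 3 or 4 (adjusted p = 0.151 and 0.156), and was also lost without glucose replicate 2 or with the arrays centred on their medians (adjusted p = 0.0503 and 0.0639).

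GAL10 (YBR019C), which encodes the epimerase and mutarotase of the pathway, was not called in any sugar. Its raffinose ratios of -2.19, -2.05, 1.30 and 0.96 gave a mean of -0.49 ± 1.88 (adjusted p = 0.515). In galactose they were -0.16, -0.17, -1.24 and -1.20, a mean of -0.69 ± 0.61 (adjusted p = 0.291, or 0.0339 with the galactose arrays fitted alone). In glucose they were -0.64, -0.24, 0.98 and 1.25, a mean of 0.34 ± 0.92 (adjusted p = 0.62). Replicates 1 and 2 were below 0 and replicates 3 and 4 above it in both raffinose and glucose, and in raffinose the pairs lay 3.25 apart. Only in galactose did all 4 arrays of this gene share a sign. GAL7, GAL10 and GAL1 are neighbours in that order on chromosome II in the RefSeq assembly R64, and GAL10 and GAL1 are transcribed away from each other from a shared control region. The array table names no genome build, and no coordinates are given for that reason.

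PGM2 (YMR105C) encodes the major phosphoglucomutase, which carries glucose 1-phosphate from the Leloir pathway into glycolysis. Its glucose ratios were 2.25, 2.22, 2.06 and 2.05, a mean of 2.15 ± 0.10 (adjusted p = 6.51e-07). In raffinose they were 1.70, 1.73, 0.87 and 1.11, a mean of 1.35 ± 0.43 (adjusted p = 0.000116). In galactose they were 0.46, 0.14, -0.24 and -0.65, a mean of -0.072 ± 0.48 (adjusted p = 0.745). The 3 groups did not overlap, glucose being highest and galactose lowest. The galactose arrays fell on both sides of 0. The paralog PGM1, the minor phosphoglucomutase, was below 0 in each sugar, with mean ratios of -0.91 ± 0.18, -0.62 ± 0.18 and -1.20 ± 0.18 (estimate ± SE) in raffinose, galactose and glucose, each called (limma, adjusted p = 0.00161, 0.008 and 7.5e-05, the second lost without galactose replicate 4 at 0.0503). Averaging replicates 1 with 2 and 3 with 4 ended the raffinose and galactose calls of PGM1 (adjusted p = 0.131 and 0.143).

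GCY1 (YOR120W), an aldo-keto reductase gene that Gal4 also activates, had the farthest ratios from 0 of the 9 genes. On its single probe the raffinose ratios were 4.46, 4.29, 3.32 and 3.37, a mean of 3.86 ± 0.60 (adjusted p = 1.27e-07) or 14.5-fold. The glucose ratios were 3.80, 4.09, 3.87 and 3.79, a mean of 3.89 ± 0.14 (adjusted p = 2.81e-08). In galactose they were 0.48, 0.20, -0.64 and -0.73, a mean of -0.17 ± 0.61 (adjusted p = 0.531). All 8 raffinose and glucose arrays lay above 3, whereas the galactose arrays lay within 1 of 0, 2 on each side. Only 2 of the 5636 genes had a higher mean in raffinose. In glucose GCY1 ranked 19 from the highest. Close paralogs exist for GAL1 (GAL3), PGM2 (PGM1) and GCY1 (YPR1), and whether their probes separate them could not be checked, since the probe sequences were not used here.

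No regulator had a mean ratio beyond 1 in size. GAL4 (YPL248C), the activator, had galactose ratios of -0.92, -1.18, -0.35 and -0.58, a mean of -0.76 ± 0.37 (adjusted p = 0.0184), and its call there was lost without galactose replicate 1 or 2 (adjusted p = 0.0637 and 0.0887). In glucose the ratios were 0.58, 0.35, 1.39 and 1.26, a mean of 0.89 ± 0.51 (adjusted p = 0.00777, or 0.0507 without glucose replicate 3). In raffinose they were -0.95, -0.70, 0.50 and 0.32, a mean of -0.20 ± 0.73 (adjusted p = 0.557). GAL4 was below 0 on every galactose array and above 0 on every glucose array, without overlap. The raffinose arrays were split, with replicates 1 and 2 below 0 and replicates 3 and 4 above.

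GAL3 (YDR009W), the sensor and a paralog of galactokinase, had glucose ratios of 0.36, 0.68, 1.11 and 1.21, a mean of 0.84 ± 0.40 (adjusted p = 0.00165). In galactose they were 0.15, -0.27, -0.60 and -0.94, a mean of -0.41 ± 0.46 (adjusted p = 0.0678), which passed with the arrays centred on their medians (0.0276) or without galactose replicate 1 (0.0185). In raffinose they were -0.65, -0.58, -0.40 and -0.007, a mean of -0.41 ± 0.29 (adjusted p = 0.1, or 0.0496 with centring). All glucose arrays of GAL3 lay above its other arrays. Of the galactose arrays only replicate 1 was above 0.

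GAL80 (YML051W), the inhibitor, was called in galactose and in neither other sugar. Its galactose ratios were -0.18, -0.10, -1.0005 and -0.92, a mean of -0.55 ± 0.48 (adjusted p = 0.0299). That call was lost without galactose replicate 3 or 4 (adjusted p = 0.154 and 0.133). In raffinose the ratios were 0.25, 0.25, -0.55 and -0.33, a mean of -0.095 ± 0.41 (adjusted p = 0.746), and in glucose 0.35, 0.077, -0.40 and -0.52, a mean of -0.12 ± 0.41 (adjusted p = 0.622). In both of these sugars replicates 1 and 2 were above 0 and replicates 3 and 4 below, the reverse of GAL10.

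Differences between sugars were tested in the same fit, as the mean of one sugar minus that of another. In every called case among the 9 genes that involved galactose, the galactose ratio was the lower one. Against raffinose 4 of the 9 genes were called below 0 and 0 above, where 13.3% of all genes were called below and 17.2% above. Against glucose 7 were called below and 0 above, beside 19.3% and 27.8% of all genes. For raffinose minus glucose 3 were called below and 0 above, beside 15.0% and 22.6%. The median difference of the 9 genes was -0.64 for galactose minus raffinose, -1.65 for galactose minus glucose and -0.79 for raffinose minus glucose, beside -0.011, 0.062 and 0.073 over all genes. The comparisons share arrays, each sugar entering 2 of them.

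GCY1 differed most, by -4.03 ± 0.32 (estimate ± SE) between galactose and raffinose (limma, adjusted p = 4.93e-06), a 16.4-fold difference of ratios that only 1 of the 5636 genes exceeded in the same direction. Between galactose and glucose it differed by -4.06 ± 0.32 (adjusted p = 1.07e-06). Between same-numbered arrays the galactose minus raffinose difference of GCY1 ran from -4.11 to -3.96, a narrower range than the ratios themselves had in either sugar. Neither the labels nor the data pair single replicate numbers across sugars, so the width of that range depends on the numbering. GAL1 differed by -2.48 ± 0.33 from raffinose (adjusted p = 0.000204) and by -3.20 ± 0.33 from glucose (adjusted p = 8.81e-06). GAL7 differed by -1.82 ± 0.33 and -2.14 ± 0.33 (adjusted p = 0.00155 and 0.000186), and PGM2 by -1.42 ± 0.25 and -2.22 ± 0.25 (adjusted p = 0.00129 and 1.61e-05). These 4 genes were also the members whose galactose arrays all lay below their raffinose arrays, as 12.2% of all genes did.

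Of the regulators, GAL4 and GAL3 were called between galactose and glucose, and 0 of 3 between galactose and raffinose. GAL4 was lower in galactose than in glucose, with a difference of -1.65 ± 0.35 (adjusted p = 0.00187), as was GAL3 with -1.25 ± 0.26 (adjusted p = 0.00154). With GAL1, GAL7, PGM2 and GCY1 they make up the 6 genes whose galactose arrays all lay below their glucose arrays, as 19.4% of all genes did. Between galactose and raffinose the 95% interval of the difference was -1.32 to 0.21 for GAL4 (adjusted p = 0.247), -1.07 to 0.16 for GAL80 (adjusted p = 0.235) and -0.57 to 0.56 for GAL3 (adjusted p = 0.99). With the replicate number as a block, which pairs same-numbered arrays, GAL4 and GAL80 passed as well (adjusted p = 0.00655 and 0.0037), for 6 genes in all. The labels do not give that pairing, and the data show it only as the split of replicates 1 and 2 from 3 and 4. The block also brought GAL80 past the threshold between galactose and glucose (adjusted p = 0.00418, against 0.236 without it), where centring did so too (adjusted p = 0.0228). The galactose minus raffinose difference of GAL80 was below 0 in 4 of 4 same-numbered pairs, from -0.59 to -0.35.

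GAL2 was lower in galactose than in glucose, with a difference of -1.62 ± 0.62 (adjusted p = 0.0487). This call was lost without galactose replicate 3 or 4 (adjusted p = 0.115 and 0.12) or without glucose replicate 2, 3 or 4 (adjusted p = 0.0632, 0.149 and 0.114). Between galactose and raffinose GAL2 differed by 1.09 and 0.78 on replicates 1 and 2 but by -2.13 and -2.31 on replicates 3 and 4, and the mean difference was not called (adjusted p = 0.463). GAL10 did likewise, with 2.03 and 1.87 on replicates 1 and 2 and -2.54 and -2.17 on replicates 3 and 4. The 95% interval of its mean difference was -1.86 to 1.46 against raffinose (adjusted p = 0.875) and -2.69 to 0.63 against glucose (adjusted p = 0.295).

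Between raffinose and glucose GAL3 differed by -1.25 ± 0.26 (adjusted p = 0.0026). PGM2 differed by -0.79 ± 0.25 (adjusted p = 0.026), a call lost without raffinose replicate 3 or 4 or glucose replicate 1 or 2 (adjusted p from 0.0578 to 0.0677). GAL4 differed by -1.10 ± 0.35 (adjusted p = 0.0266), lost without raffinose replicate 1 or 2 or glucose replicate 3 or 4 (adjusted p from 0.0737 to 0.0827). GCY1, by contrast, had nearly the same mean in both, with a 95% interval of -0.72 to 0.67 for the difference (adjusted p = 0.959). GAL1, GAL3 and PGM2 had every raffinose array below every glucose array, as 15.4% of all genes did, although the difference of GAL1 was not called (95% interval -1.45 to 0.002, adjusted p = 0.11, or 0.0467 with centring).

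**Figure D2:**
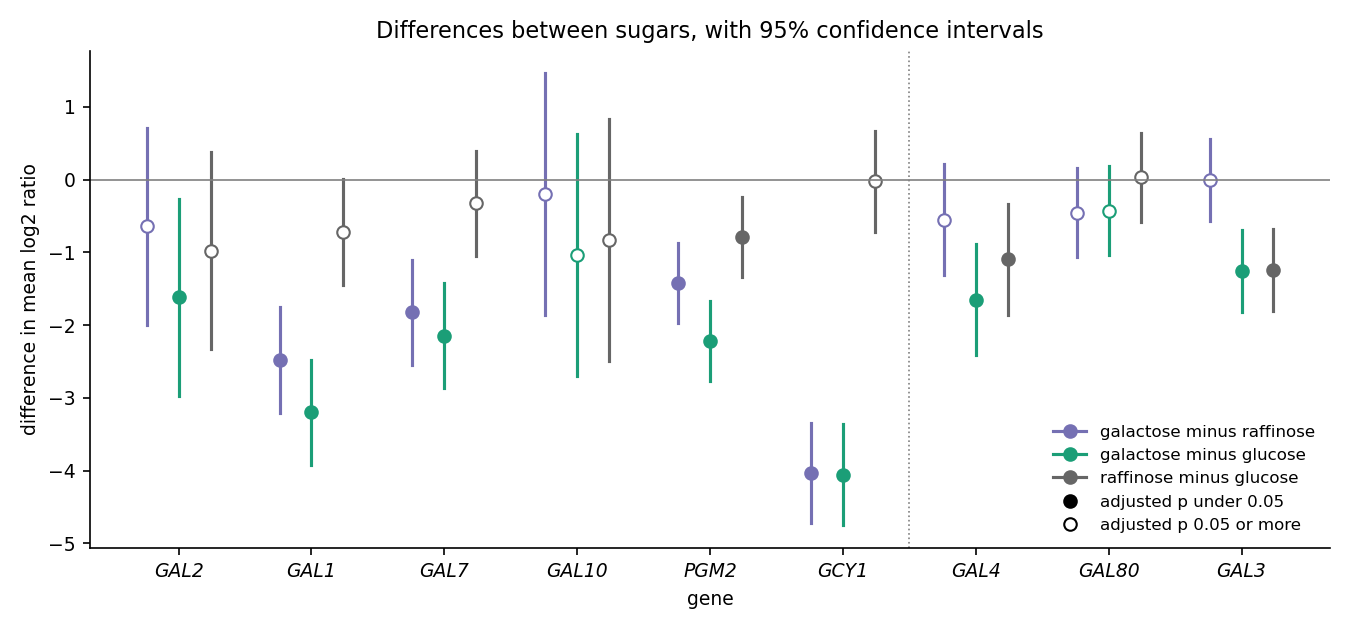
Difference in mean log2 ratio between sugars (vertical axis) for each gene (horizontal axis), as points with 95% confidence intervals from the fit to 12 arrays, filled where the adjusted p is under 0.05. The filled points all lie below 0: 4 for galactose minus raffinose, 7 for galactose minus glucose and 3 for raffinose minus glucose.

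Turning the signs of raffinose replicates 3 and 4 left 0 of the 9 genes called in raffinose. It left 0 of all 5636 genes called there too, against 2071 with the deposited signs. GCY1 then had a mean of 0.51 (adjusted p = 0.731), PGM2 0.36 (adjusted p = 0.511) and GAL7 -0.41 (adjusted p = 0.308), the last on the other side of 0. Galactose minus raffinose kept GAL1 (-1.86, adjusted p = 0.00266) and gained GAL80 (-0.89, adjusted p = 0.0146). Raffinose minus glucose then held 6 called members, all below 0, from -1.96 for GAL10 to -1.05 for GAL3. Of all 5636 genes, 2503 were then called for galactose minus raffinose and 2705 for raffinose minus glucose, on either side of 0. With the deposited signs GAL1, GAL2, GAL7, PGM2, GCY1 and GAL3 each had the same sign on all 4 raffinose arrays. With turned signs GAL10, GAL4 and GAL80 did instead.

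Replicates 1 and 2 of a sugar differed from its replicates 3 and 4. Over all genes the mean of replicates 3 and 4 had the opposite sign from that of replicates 1 and 2 for 45.4% of genes in raffinose, 28.5% in galactose and 20.7% in glucose. Among the members these were GAL10, GAL4 and GAL80 in raffinose, PGM2 and GCY1 in galactose, and GAL2, GAL10 and GAL80 in glucose. GAL1, GAL7 and GAL3 kept the same sign in both pairs in every sugar. Whether the pairs are dye orientations or cultures cannot be told apart from the labels. With replicates 1 and 2 averaged to 1 value, and 3 and 4 to another, 11 of the 28 member calls in the 6 comparisons were kept. These were GCY1 in raffinose, GAL1 and GAL7 in galactose, GAL1, PGM2 and GCY1 in glucose, GCY1 for galactose minus raffinose, and GAL1, GAL7, PGM2 and GCY1 for galactose minus glucose. With either of the other ways of averaging in pairs, 28 of 28 were kept. Those ways average across the 2 pairs, which takes the difference between the pairs out of the spread. Keeping the calls there is therefore no support for them.

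**Figure D3:**
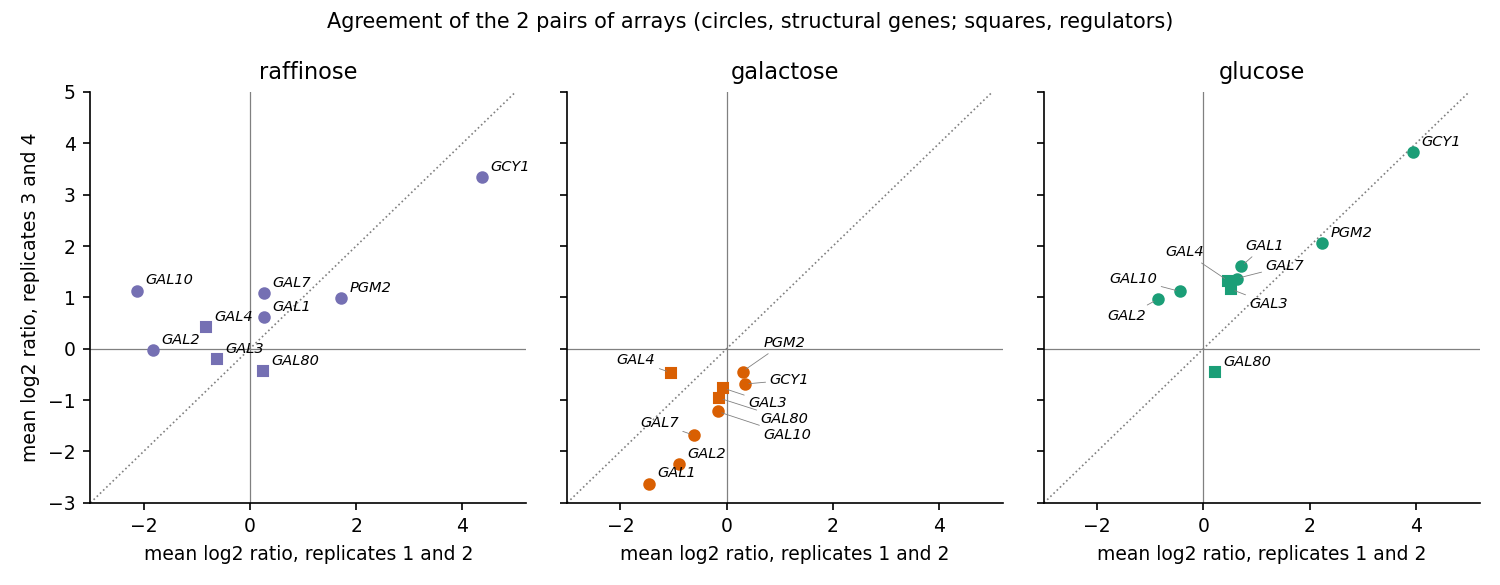
Mean log2 ratio of replicates 3 and 4 (vertical axis) against that of replicates 1 and 2 (horizontal axis) for each gene in each sugar, with the dotted line where they are equal. In raffinose GAL10 lies farthest from the line, with its pairs 3.25 apart, and in galactose every gene but GAL4 lies below it.

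The 6 structural genes as a group lay above the 3 regulators in raffinose and glucose and not in galactose. The mean of the structural genes minus that of the regulators was 0.89, 0.80, 1.34 and 1.19 on the raffinose arrays, a mean of 1.05 ± 0.25. On the glucose arrays it was 0.45, 0.82, 1.17 and 1.12, a mean of 0.89 ± 0.33. On the galactose arrays it was 0.012, -0.0038, -0.75 and -0.76, a mean of -0.38 ± 0.44. Every raffinose and glucose array lay above every galactose array. The gap outside galactose rested on PGM2 and GCY1, since without them it was 0.16 ± 0.72 in raffinose, 0.10 ± 0.60 in glucose and -0.79 ± 0.49 in galactose. Without GAL3 among the regulators it was 0.97 ± 0.27, 1.04 ± 0.46 and -0.30 ± 0.56 in the same order. GAL1, GAL7, PGM2 and GCY1 were all lower in galactose than in both other sugars, but PGM2 and GCY1 were so from levels well above 0.

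**Figure D4:**
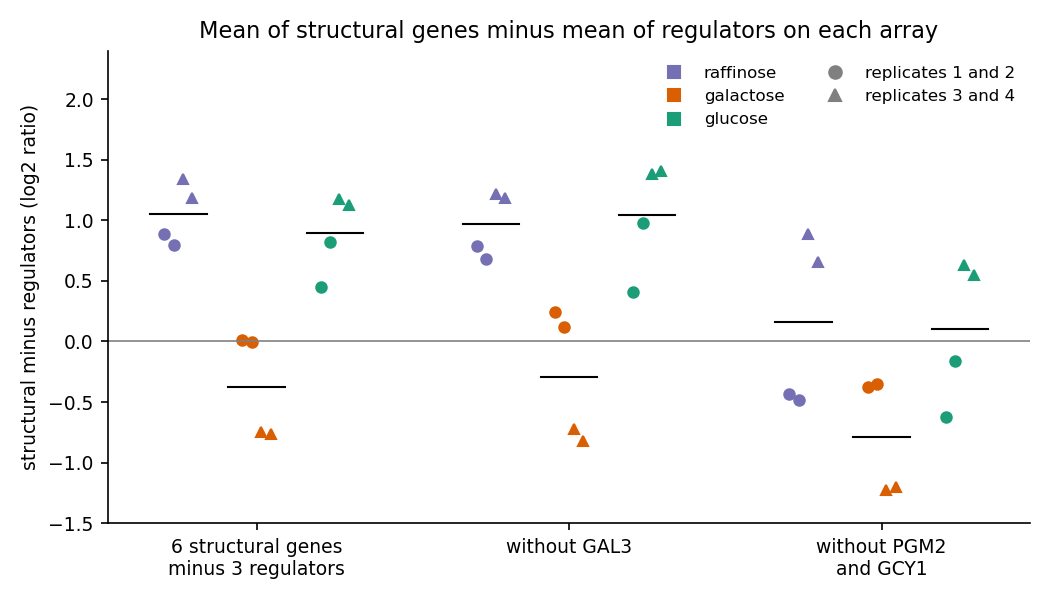
Mean log2 ratio of the structural genes minus that of the regulators on each array (vertical axis), for the full lists, without GAL3, and without PGM2 and GCY1 (horizontal axis), with a bar for the mean of 4 arrays. With the full lists the galactose arrays lie at or below 0.012 and the others at or above 0.45. Without PGM2 and GCY1 the raffinose and glucose means are 0.16 and 0.10.

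Many probes of an array held exactly the same ratio, and the members were unequally touched by this. On each array 3.85% to 20.5% of probes held a value that at least 20 probes shared. The ratio of 2 small whole numbers recurs more often than that of large ones, and the gaps between the most frequent values were mostly logs of such ratios. Of the members' probe values 13 of 64 were shared in this way in raffinose, 15 of 64 in glucose and 0 of 64 in galactose. For GAL10 6 of 8 values were shared in raffinose and 4 of 8 in glucose, and for GAL2 2 of 4 in each. In glucose GAL3 had 4 of 8 and GAL4 3 of 8, and in raffinose GAL7 had 3 of 8. The glucose replicate 2 value of GAL2, -0.32, was held by 271 probes. PGM2, GCY1 and GAL80 had 0 such values in each sugar. The raffinose values of GAL10 also differed between its probes, by up to 1.95 on replicate 4. Leaving the shared values out kept 25 of the 28 member calls and lost those of GAL7 in raffinose, GAL2 between galactose and glucose and GAL4 between raffinose and glucose.

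**Figure D5:**
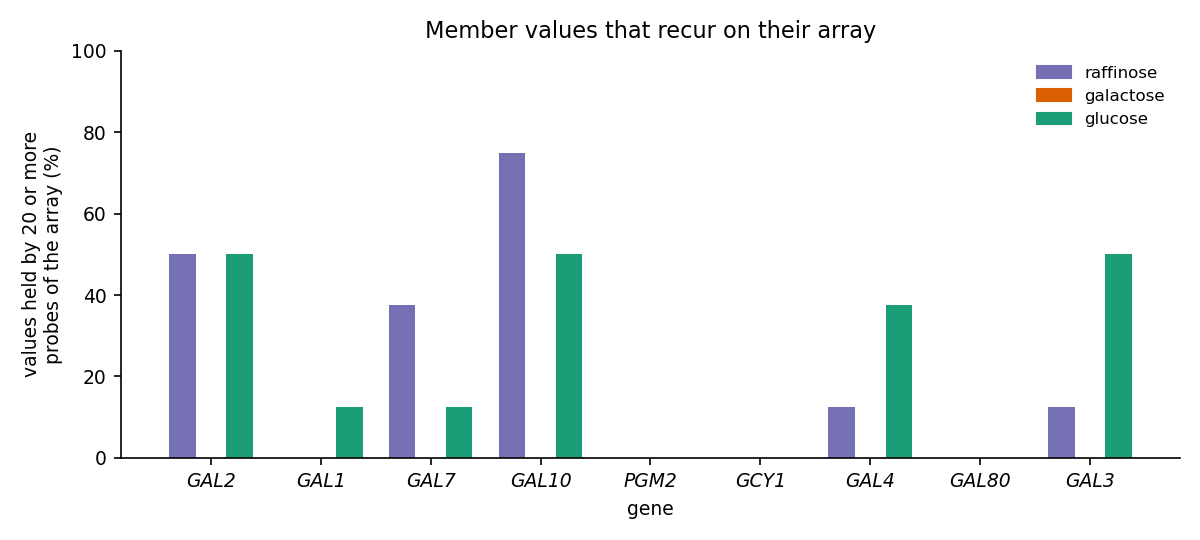
Percentage of each gene's probe values that at least 20 probes of the same array hold exactly (vertical axis), by gene (horizontal axis) and sugar. No bar is drawn for galactose, where the count is 0 for every gene, and the raffinose bar of GAL10 is the highest.

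Of 3 further genes that Gal4 is known to activate, all 3 had lower ratios in galactose than in both other sugars. MTH1, which encodes a regulator of hexose transporter genes, had ratios of 0.48, -2.03 and 1.56 in raffinose, galactose and glucose, the first of them not called. The uracil permease gene FUR4, the neighbour of GAL1 on chromosome II, had ratios of 1.38, -0.75 and 1.30, all called. The cyclin gene PCL10 had ratios of 1.40, -0.11 and 1.24, that in galactose not called. All 3 were called below 0 for galactose minus raffinose, at -2.51, -2.13 and -1.51 in the order MTH1, FUR4 and PCL10 (limma, adjusted p = 2.49e-05, 0.000161 and 0.00141). They were called below 0 for galactose minus glucose too, at -3.59, -2.05 and -1.35. Of all genes, 13.3% were called below 0 for galactose minus raffinose and 19.3% for galactose minus glucose. Averaging replicates 1 with 2 and 3 with 4 ended the galactose minus raffinose calls of FUR4 and PCL10 (adjusted p = 0.0701 and 0.144) and the galactose minus glucose call of PCL10 (adjusted p = 0.0757). With the raffinose signs turned, the galactose minus raffinose call of MTH1 was kept (-2.20, adjusted p = 5e-04) and those of FUR4 and PCL10 were lost (adjusted p = 0.299 and 0.524). UGP1, which makes the UDP-glucose used by the pathway, did not follow this pattern, with ratios of 0.85, 1.31 and 1.63, all called above 0, and neither difference between galactose and another sugar was called (adjusted p = 0.273 and 0.419). Its raffinose call was lost without raffinose replicate 2 (adjusted p = 0.0502) and with the same averaging (adjusted p = 0.186).

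Over the 12 arrays, the gene whose ratios were most like those of GAL1 by Pearson correlation was GAL7 (r = 0.978), among 5634 genes compared. The 5 closest genes other than members were MRK1 (r = 0.976), NNK1 (0.975), MTH1 (0.973), SDD1 (0.972) and JHD2 (0.972). Of the other members GCY1 reached 0.929 and PGM2 0.92. The regulators and the remaining structural genes were less like GAL1, with 0.727 for GAL4, 0.722 for GAL2, 0.70 for GAL3, 0.47 for GAL10 and 0.46 for GAL80. The points are 4 arrays of each of 3 sugars, and arrays of a sugar share cultures, so these values describe the pattern over sugars.

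Of 10 genes of the glucose repression pathway, 2 were called above 0 and 2 below in raffinose, 4 above and 2 below in galactose and 1 above and 2 below in glucose. In galactose the repressor gene NRG1 was at 1.80 (adjusted p = 8.58e-06) and REG1, which encodes a regulatory subunit of the Glc7 phosphatase, at 1.11 (adjusted p = 4.28e-06). CYC8 and SNF1 were also called above 0 there, at 0.53 and 0.60 (limma, adjusted p = 0.0209 and 0.00949). The hexokinase gene HXK2 was at -1.91 (adjusted p = 4.05e-05) and the co-repressor gene TUP1 at -0.86 (adjusted p = 0.00332, or 0.0807 with replicates 1 and 2, and 3 and 4, averaged). That averaging ended the galactose calls of CYC8 and SNF1 too. TUP1 was called below 0 in raffinose and glucose as well, at -0.94 and -1.12, the raffinose call being lost with that averaging. The shares of all genes called above and below 0 were 22.4% and 14.3% in raffinose, 34.8% and 25.2% in galactose and 26.8% and 31.8% in glucose.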

How the data were processed

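Two-channel Agilent arrays measured total RNA of yeast, 4 arrays for each of 3 sugars and 12 in all, channel 1 being Cy5 and channel 2 Cy3 per the labels. For every probe of an array the deposited values are 1 log2 ratio. How the authors corrected background, normalized the arrays or turned dye-swapped signs is not given in the sources used here, so any dye or scaling effect left in the ratios is also in the values above. The base was taken from recurring values. Of 108 gaps between the 10 most frequent values of each array, 106 were the log2 of a ratio of whole numbers up to 20 (within 0.0015), against 31 if read as natural logs and 40 as log10.

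Of 10807 probes, 9271 carry 1 gene symbol and 1536 none, and all 9271 were found in RefSeq's genes of assembly R64, which gave names and neighbours only. Probes of a gene were averaged, and 5636 genes had values on at least 3 of 4 arrays per sugar. Array medians ran from -0.188 to 0.296 and were not centred. The fit was limma 3.58.1 in R 4.3.3 with 1 mean per sugar, a spread shared by the 12 arrays, and Benjamini-Hochberg adjustment over all genes at 0.05. Tables and plots used Python 3.11.15, pandas 2.3.3 and matplotlib 3.10.9, and the fit was tested on simulated data. The members and gene lists were chosen with earlier results of these data known. Genes named are GCR1, the members, the other genes of the lists, and the 5 most like GAL1. GPM1, ENO2 and YPR1 were named outside that rule.

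Same-numbered arrays of different sugars deviated together from their sugar means (r from 0.522 to 0.893 over genes). Within the pairs 1 and 2 or 3 and 4 the same correlation was -0.321 to 0.153. The shared deviation was thus that between these pairs, and neither the data nor the labels pair single numbers. The replicate block takes same-numbered arrays as pairs without that support. Alternatives were centring, a replicate block, averaging in pairs, each array left out, probes fitted singly, no minimum number of arrays, each sugar alone, turned raffinose signs and, chosen after seeing the data, leaving out shared values.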

Additional observations from a re-analysis of the deposited data

Results flagged for a closer look

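The strain ratio of a galactose utilisation gene differed between sugars, by a test of the difference itself (limma, adjusted p under 0.05), in 14 cases, listed here as differences in mean log2 ratio. For galactose minus raffinose they were GAL1 (-2.48), GAL7 (-1.82), PGM2 (-1.42) and GCY1 (-4.03). For galactose minus glucose they were GAL1 (-3.20), GAL2 (-1.62), GAL7 (-2.14), PGM2 (-2.22), GCY1 (-4.06), GAL3 (-1.25) and GAL4 (-1.65). For raffinose minus glucose they were PGM2 (-0.79), GAL3 (-1.25) and GAL4 (-1.10). No member had a single array far from the other 3 in a sugar by Dixon's criterion.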

How the results depend on the processing

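Of the 28 member calls, 21 were kept whichever array was left out. The number of members called then ran from 2 to 3 in raffinose, 4 to 5 in galactose, 5 to 6 in glucose, 4 to 4 for galactose minus raffinose, 6 to 7 for galactose minus glucose and 2 to 3 for raffinose minus glucose. The number of all genes called ran, in the same order, from 1575 to 2078, 2971 to 3467, 2833 to 3369, 1294 to 1813, 2319 to 2758 and 1704 to 2194. In that order of comparisons, averaging replicates 1 with 2 and 3 with 4 left 1, 2, 3, 1, 4 and 0 members called. It left 184, 1688, 1564, 84, 796 and 132 of all genes, against 2071, 3383, 3302, 1718, 2656 and 2117 in the unaveraged fit. Averaging 1 with 3 and 2 with 4 gave 7 members in raffinose (3660 genes), 7 for galactose minus raffinose (3561) and 7 for raffinose minus glucose (3713), with 4089 genes for galactose minus glucose. Averaging 1 with 4 and 2 with 3 gave 8 in raffinose (4558 genes), 8 in galactose (4983) and 8 for galactose minus raffinose (4431). It gave 7 for raffinose minus glucose (4556), with 4749 genes for galactose minus glucose. Both of these ways average across the pairs 1 and 2, and 3 and 4, which takes the difference between those pairs out of the spread. The replicate block called 6 members for galactose minus raffinose and raised the genes called to 3406 in raffinose, 3358 for galactose minus raffinose and 3492 for raffinose minus glucose. Besides GAL4 and GAL80 there and GAL80 for galactose minus glucose, the block changed no member call. Centring called 2820 genes for galactose minus raffinose, and raffinose fitted alone 1233. Turned raffinose signs called 0 members and 0 genes in raffinose. They called 2 members for galactose minus raffinose (2503 genes) and 6 for raffinose minus glucose (2705 genes). They reversed GAL7 (-0.41), PGM1 (0.34), MIG2 (-0.068), NRG1 (0.34), TUP1 (0.40) and SNF2 (0.20) in raffinose, TUP1 for galactose minus raffinose (-1.26) and GCR1 for raffinose minus glucose (-0.10). Structural minus regulator genes moved to 0.16 in raffinose and 0.10 in glucose without PGM2 and GCY1, and with arrays left out it ran from 0.96 to 1.14 in raffinose, -0.50 to -0.25 in galactose and 0.80 to 1.04 in glucose. The cause of these changes was not tested. With no brightness values, a limit set by dim spots cannot be given.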

Other observations

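Among 6 genes of the SAGA and SWI/SNF co-activator complexes, which act at GAL promoters, 1 was called above 0 and 1 below in raffinose, 4 above and 0 below in galactose, and 1 above and 4 below in glucose. The SWI/SNF ATPase gene SNF2 had a ratio of 0.44 in galactose and -0.70 in glucose, and its difference of 1.14 ± 0.21 was called (estimate ± SE, limma, adjusted p = 0.000803). The SAGA gene SPT7 had 0.43 and -0.58, a difference of 1.01 ± 0.20 (adjusted p = 0.00115). For galactose minus glucose 4 of the 6 were called above 0 and 0 below, beside 27.8% and 19.3% of all genes. SPT3 was above 0 in both sugars, at 0.98 and 0.49, and its difference was not called (limma, adjusted p = 0.106). GCN5 was below 0 in both, at -0.34 and -0.21, with a difference of -0.13 that was not called (adjusted p = 0.715). In the galactose arrays themselves the calls of SNF2, SWI1 and SPT7 were lost without galactose replicate 1 (adjusted p = 0.131, 0.0548 and 0.0936) or replicate 2 (0.0993, 0.0559 and 0.0982). They were also lost with galactose fitted alone (adjusted p = 0.0669, 0.0597 and 0.0637). Averaging replicates 1 with 2 and 3 with 4 left SPT3 in galactose and 0 of the 6 in raffinose and glucose called. It also ended all 4 galactose minus glucose calls, with adjusted p = 0.0741 for SNF2 and 0.105 for SPT7. Over all genes 34.8% were called above 0 in galactose and 31.8% below 0 in glucose.

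Of 3 other genes named for galactose growth, LAP3 (also called GAL6), a cysteine protease gene, had ratios of 1.80, 0.27 and 2.15 in raffinose, galactose and glucose. Its ratio was lower in galactose than in raffinose, with a difference of -1.53 ± 0.31 (adjusted p = 0.00321, or 0.845 with the raffinose signs turned and 0.177 with that averaging) and than in glucose, with -1.88 ± 0.31 (limma, adjusted p = 0.000321). GAL83, a subunit gene of the Snf1 kinase, had ratios of -0.41, -0.34 and -0.47. All 3 were called below 0, although the raffinose call was lost without raffinose replicate 1 or 3 and the galactose call without galactose replicate 2, 3 or 4, and all 3 with that averaging. The Mediator gene GAL11 (also called MED15) was called in galactose, at 0.50 (adjusted p = 0.00396, or 0.158 with that averaging), and not in raffinose (0.22) or glucose (-0.0604).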
